A study of Mus musculus with 6 samples.

Results

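DNA replication genes encode the machinery that licenses origins, unwinds and copies DNA, supplies nucleotides and rebuilds chromatin behind the fork. 49 of them were followed here among the 46517 genes counted in primary mouse renal tubule epithelial cells (RTECs). They were chosen by their known roles, with earlier results of these data known, and matched by gene symbol, and the rule itself uses no measured value. All 49 were counted deeply enough to be tested, and the fewest reads any of them had in a culture was 13, for Mcm10. The 49 genes fell into 9 roles, which order the results.

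RTECs were cultured from kidneys of wild-type FvB mice, 4 to 6 weeks old per the labels, and poly(A) RNA was sequenced. 3 cultures were labelled control (CTL) and 3 were exposed to 50 ng/ml TGF-β1, a profibrotic cytokine, for 24 h after 24 h without serum. The comparison asks how the transcripts of tubule cells respond to TGF-β1, in a study of Notch signalling in kidney fibrosis. The cells were grown from digested kidney and not sorted by tubule segment, no genotype other than wild type was present in either group, and what the CTL cultures received in place of TGF-β1 is not given in the sources used here. The labels do not say whether the cultures came from separate animals, so p-values measure the spread between these cultures.

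Replication starts when the origin recognition complex, Cdc6 and Cdt1 load a ring of Mcm2 to Mcm7 onto DNA in G1, a step that geminin (Gmnn) blocks later in the cycle. Cdc45 and the GINS complex turn the ring into an active helicase, primase and the DNA polymerases copy both strands, and Pcna, loaded by replication factor C, holds the polymerases in place. Many of these genes are transcribed at the G1 to S transition by E2F factors. Tubule cells of the adult kidney rarely divide but re-enter the cycle after injury and in culture, and TGF-β1 is a known brake on the cycle of epithelial cells.

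Libraries held 28313080 to 34183497 reads on genes. Values below are CPM, the reads of a gene relative to the TMM-scaled total of its library, and are listed in the order of replicates 1, 2 and 3. Both cultures numbered 2 stood apart: the summed level of 4 Y-linked genes was at least 142 CPM in them and at most 0.172 CPM in the other cultures, whereas Xist was at 207 to 237 CPM in them and at 516 to 634 CPM elsewhere. The methods of the study name male mice, but the cultures numbered 1 and 3 carried Xist with almost no Y-linked reads, as female cells do. Those numbered 2 carried Xist together with Y-linked reads. Markers of tubule epithelium (8 genes) summed to 1120 to 2839 CPM in CTL and 963 to 2318 CPM in TGF-β1. Fibroblast markers (8 genes, 7 tested) summed to 1517 to 2901 CPM and 1794 to 3764 CPM. In replicate 2 of each group the epithelial sum was lowest and the fibroblast sum highest, but single markers differed. Epcam, Cdh1, Krt8, Krt18 and Krt19 were lowest in replicate 2 of each group, whereas Cdh16, Pax8 and Pax2 were not lowest in CTL replicate 2. Pdgfrb, Col1a1, Col1a2, Col3a1 and Dcn were highest in replicate 2 of each group. Postn and Pdgfra were instead lowest there in each group, and Lum was highest there in TGF-β1 only. Of the tubule epithelium markers 2 of 8, Cdh16 and Pax8, were called lower with TGF-β1, and of the proximal tubule markers 2 of the 4 that were tested, Lrp2 and Aqp1, all 4 named after their values were seen. edgeR called no fibroblast marker. With the replicate number as a block, 6 of 8 tubule epithelium markers and 3 of the 4 tested proximal tubule markers were lower, 2 fibroblast markers were lower and 3 higher, and 1 marker each of the thick limb and distal tubule, collecting duct and endothelium was lower. Markers of the thick limb and distal tubule, collecting duct, endothelium and leukocytes (6 genes each) summed to at most 3.55, 2.10, 51.9 and 5.97 CPM. The endothelial sum was mostly Flt1, at 21.9 to 49.6 CPM and named after its values were seen. Flt1 was also the endothelial marker that was lower with the block. The other endothelial markers were at 1.08 CPM or less in every culture. None of the markers was at 0 in all libraries. The part of these differences in the results below was not tested.

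Most of the 49 replication genes had lower levels after TGF-β1, and 13 of them passed the test. Their median log2 fold change (TGF-β1 over CTL) was −0.26, against −0.003 over all 15862 genes tested, and 44 of the 49 had a fold change below 0, a direction that 50.7% of all genes shared. 13 genes fell at an adjusted p below 0.05, which is 26.5% of the 49, whereas 6.69% of all genes tested were called lower. The 13 were Clspn, Mcm10, Cdc6, Prim1, Uhrf1, Wdhd1, Mcm5, Rrm2, Pole, Mcm3, Mcm6, Lig1 and Pold1, and their median was −0.92, against −0.20 for the other 36. edgeR called 0 of the 49 higher, where 5% of all genes were called higher. 1 gene, Tyms, was higher and 24 genes were lower at an unadjusted p under 0.05, as were 13.2% and 15.4% of all genes, and DESeq2 and limma-voom also called 0 higher. Over all genes 1061 were called lower and 793 higher, and 1467 and 508 with scaling by total only, which shifted the median of all genes by −0.074 on the log2 scale. In bulk RNA, fewer cells in S phase and less RNA per cell cannot be told apart.

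Replicate numbers paired the cultures, and a fit with the number as a block gave 26 genes lower and 1, Tyms, higher. The background rose as well, to 19.1% of all genes lower and 15.1% higher. 13 genes were gained as lower with the block and 0 of the first 13 were lost. In 29 of the 49 (59.2%) every TGF-β1 culture lay below every CTL culture, as it did for 18% of all genes tested, and in 1, Tyms, every TGF-β1 culture lay above, as for 17.2% of all genes. The summed level of the 49 was 814, 870 and 762 CPM in CTL and 690, 673 and 710 CPM in TGF-β1, so that the groups did not overlap.

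Within pairs of the same number, the median log2 ratio of the 49 genes was −0.25 in pair 1, −0.44 in pair 2 and −0.17 in pair 3. TGF-β1 was the lower culture for 40, 42 and 39 of the 49 genes in these pairs, and 33 genes were lower in all 3. The share of all genes lower within these pairs was not counted, so these counts have no background beside them. The median was lowest in pair 2, the cultures that stood apart by their Y-linked genes.

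**Figure D1:**
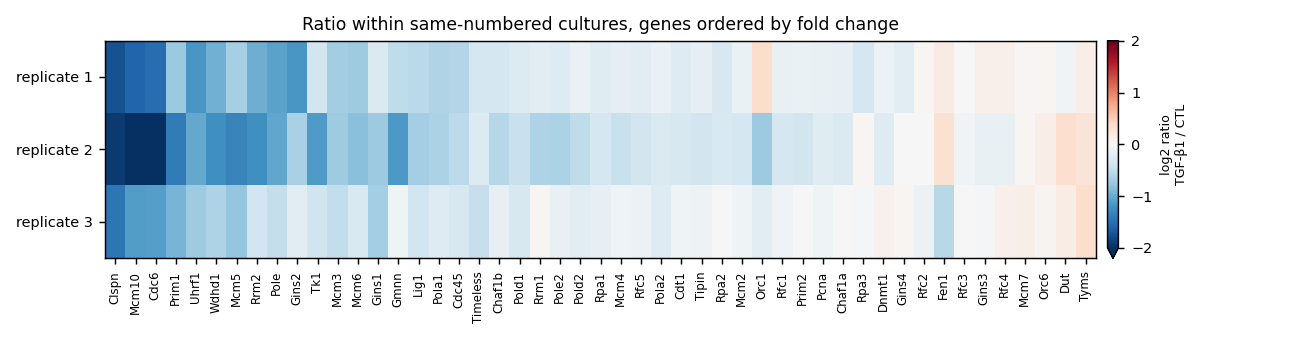
Heat map of the log2 ratio of TGF-β1 over CTL within cultures of the same replicate number (rows) for the 49 genes (columns, ordered by fitted fold change). Blue is lower with TGF-β1 and red higher, and colours end at 2 on either side. Clspn, Mcm10 and Cdc6 on the left are lower by more than 1 in all 3 pairs, and Tyms on the right is higher in all 3.

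The calls changed when single cultures were left out, as did the calls over all genes. Leaving out CTL replicate 1 or TGF-β1 replicate 1 kept 1 of the 13 genes, Uhrf1, leaving out CTL replicate 2 kept 5, and leaving out TGF-β1 replicate 2 kept 7. Without TGF-β1 replicate 3, 7 of the 13 were kept and Pola1 was newly called, which gave 8, and without CTL replicate 3, 10 were kept and Rpa1 was newly called, which gave 11. The share of all genes called lower in these fits was 1.15% to 4.98%. Uhrf1 was called in each of these 6 fits, with an adjusted p of at most 0.0466. Cdc6, Mcm5, Clspn and Wdhd1 were lost without either culture numbered 1 and kept in the other 4 fits. Lig1 was lost without these and also without CTL replicate 2, and Mcm10 without these, CTL replicate 2 or TGF-β1 replicate 3. Prim1, Rrm2 and Mcm6 were kept only without CTL replicate 3, Mcm3 only without TGF-β1 replicate 3, and Pole and Pold1 in none. The adjusted p of the 13 genes in these fits reached at most 0.194, for Pold1, and their log2 fold changes stayed below 0 in all 6 fits.

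Genes of low and of higher level were both among the 13. Of the 24 replication genes with a mean under 10 CPM, 8 were called lower and the median log2 fold change was −0.51, whereas 8.02% of all genes under 10 CPM were called lower and their median was −0.08. Of the 25 from 10 CPM upward, 5 were called lower with a median of −0.21, against 5.84% and a median of 0.02 for all genes from 10 CPM upward.

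**Figure D2:**
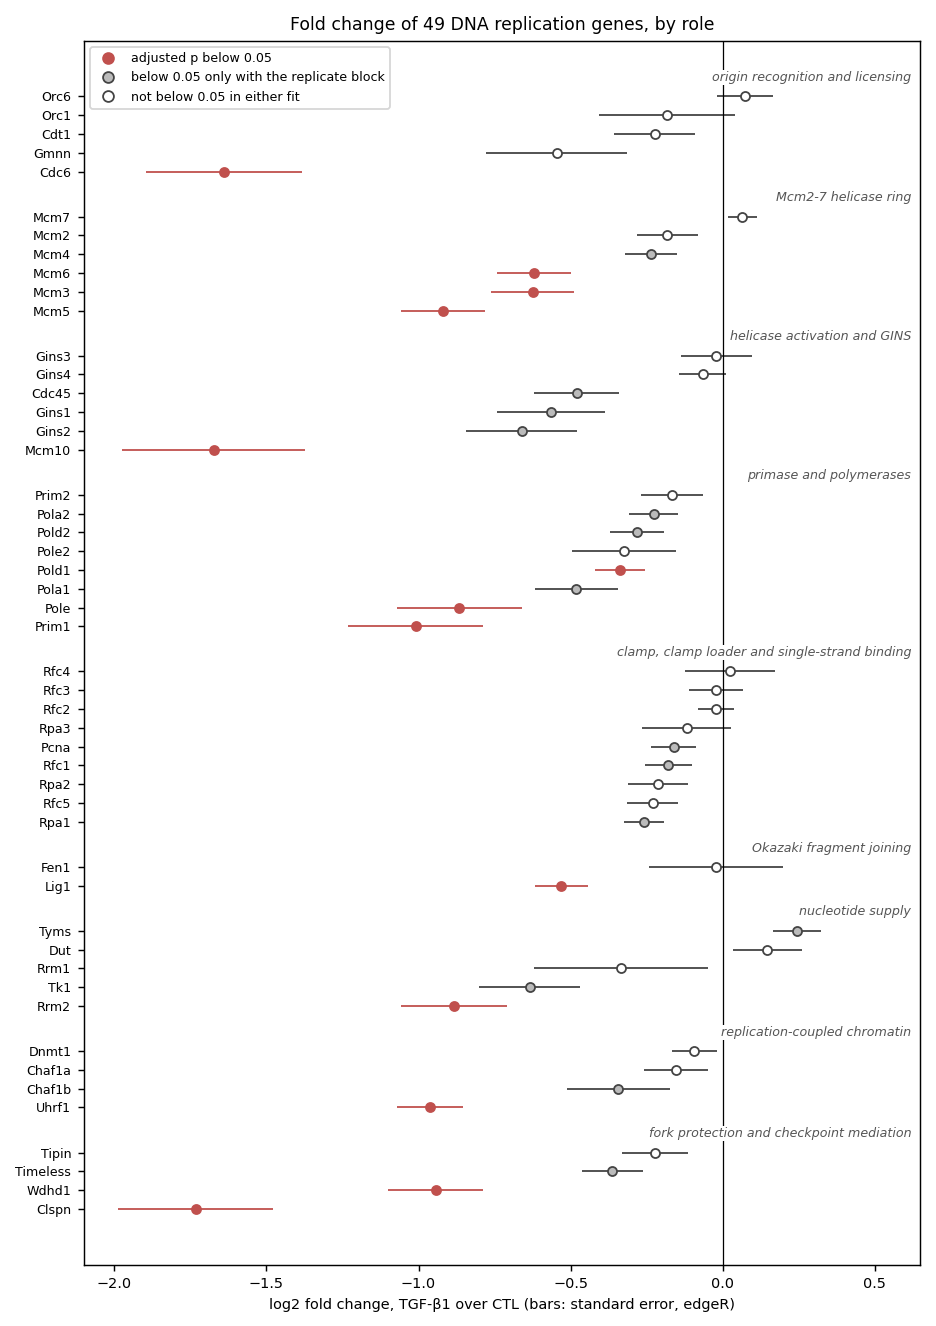
Fold change of each of the 49 genes on a log2 scale (points) with its standard error (bars), grouped by role. Red points passed an adjusted p of 0.05, grey points passed it only with the replicate block and open points in neither fit. Clspn, Mcm10 and Cdc6 lie between −1.73 and −1.64, and the genes to the right of 0 are Orc6, Mcm7, Rfc4, Dut and Tyms, of which Orc6 (−0.0015), Mcm7 (−0.0092) and Rfc4 (−0.048) fall below 0 when libraries are scaled by total only, which shifts the median of all genes by −0.074.

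Promoter sequence was examined because many replication genes carry E2F sites. RefSeq promoter windows of GRCm38.p6, from 250 bases before to 50 bases after a transcription start, were found for 40 of the 49 genes and searched on both strands for TTTCCCGC, TTTCGCGC, TTTGCCGC and TTTGGCGC, which can overlap each other. 16 of the 40 (40.0%) held at least 1 of these, against 2.6% of 27025 genes with a window. The match stood wholly before a start in 10 of the 16 and only at or after it in the other 6. Gins1, Gins2, Gins4, Gmnn, Mcm4, Pole, Prim2, Rfc2 and Tipin had no entry.

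Windows around the match are shown for 4 genes that were called lower, to set the sequence beside the fall. Capitals mark the matched letters, and each window is written 5′ to 3′ on the strand of its gene. The Cdc6 window is chr11:98907983-98908050 (plus strand), with the match starting 138 bases before the RefSeq start. GENCODE begins Cdc6 earlier, at 98907801, so this window lies within the annotated gene, though it meets no annotated exon. The Mcm5 window is chr8:75109326-75109397 (plus strand), where 2 overlapping matches begin 153 and 149 bases before the start. The Mcm6 window is chr1:128359715-128359845 (minus strand) and holds 3 matches, the first at 110 and the last at 47 bases before the start. The Uhrf1 window is chr17:56304098-56304165 (plus strand), 185 bases before the second of its starts.
Cdc6: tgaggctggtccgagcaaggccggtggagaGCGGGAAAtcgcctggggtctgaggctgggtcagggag
Mcm5: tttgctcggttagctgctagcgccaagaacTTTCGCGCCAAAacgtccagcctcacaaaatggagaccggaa
Mcm6: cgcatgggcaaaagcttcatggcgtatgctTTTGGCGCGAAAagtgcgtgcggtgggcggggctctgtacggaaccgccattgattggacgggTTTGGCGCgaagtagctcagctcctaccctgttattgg
Uhrf1: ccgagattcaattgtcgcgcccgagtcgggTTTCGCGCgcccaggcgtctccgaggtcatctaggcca

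The same letters also stood upstream of genes that were not called without the block, and 4 of these are shown beside them. Pola1, which was called lower with the block (adjusted p = 0.00626), has its match 138 bases before the start at chrX:93632256-93632323 (minus strand). The other windows meet an annotated exon of their gene and are cut short for that reason: Mcm7 at chr5:138172030-138172059 (minus strand), Gins3 at chr8:95633507-95633536 (plus strand) and Rfc3 at chr5:151651209-151651229 (minus strand), with matches 165, 41 and 10 bases before a start.
Pola1: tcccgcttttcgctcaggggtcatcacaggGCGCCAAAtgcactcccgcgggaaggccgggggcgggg
Mcm7: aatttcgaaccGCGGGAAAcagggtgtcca
Gins3: gcgagtgcggcGCGGGAAAgcgagtttgaa
Rfc3: acgtcgcacgcTTTCGCGCtc

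8 of the 12 genes called lower that had a window held a match (66.7%), as did 8 of the 28 that were not called (28.6%). Among the called genes the match stood before a start in Cdc6, Mcm5, Mcm6 and Uhrf1, and only after it in Clspn, Lig1, Mcm3 and Pold1. Among those not called it stood before a start in Dnmt1, Gins3, Mcm7, Orc1, Pola1 and Rfc3, and only after it in Cdt1 and Pole2. The contrast in shares thus included matches after the start. The median log2 fold change was −0.41 over the 16 genes with a match and −0.23 over the 24 without one. Among all tested genes with a window, 8.65% of the 497 that held a match were called lower and 7.30% of the 10498 that did not, with medians of −0.01 in each. A looser search for the 6-base letters GGCGCC or GCGGGA found 75.0% of the replication genes and 29.3% of all genes. These matches describe sequence only, and no binding was measured.

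Of the 5 licensing genes, which mark origins and load the helicase, Cdc6 fell and the other 4 were not called. The counts in this and the following roles stand against 6.69% of all genes called lower, or 19.1% with the block. Cdc6, the ATPase that loads the Mcm ring, was at 2.5, 2.95 and 2.17 CPM in CTL and 0.866, 0.556 and 1.01 CPM in TGF-β1. All TGF-β1 cultures lay below all CTL cultures, and the mean was 31.9% of CTL (log2 fold change −1.64, SE 0.256, adjusted p = 0.0146). Gmnn, the inhibitor of Cdt1, was at 3.75, 4.71 and 3.96 CPM in CTL and 2.63, 2.13 and 3.74 CPM in TGF-β1. Its groups did not overlap either, although TGF-β1 replicate 3 lay just below CTL replicate 1, and it was not called (log2 fold change −0.55, SE 0.231, adjusted p = 0.183). Orc6, a subunit of the origin recognition complex, was at 12.7, 13.6 and 12.2 CPM in CTL and 13.1, 14.8 and 12.6 CPM in TGF-β1 with overlapping groups (log2 fold change 0.07, SE 0.0917, adjusted p = 0.653, and a fold change of −0.0015 with scaling by total only). Cdt1, the partner of Cdc6 in loading, had a log2 fold change of −0.22 (adjusted p = 0.329), and Orc1, the largest subunit of the origin complex, one of −0.18 (adjusted p = 0.646). With the block, Cdc6 was again the 1 licensing gene past the threshold.

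Of the 6 subunits of the helicase ring, Mcm5, Mcm3 and Mcm6 fell, and Mcm2, Mcm4 and Mcm7 were not called. The difference between these subunits was not tested. Mcm5 was at 9.24, 11.2 and 9.47 CPM in CTL and 5.81, 4.51 and 5.52 CPM in TGF-β1 (log2 fold change −0.92, SE 0.138, adjusted p = 0.0132). Mcm3 was at 16.6, 14.3 and 16.8 CPM in CTL and 10.3, 8.7 and 11.9 CPM in TGF-β1 (log2 fold change −0.62, SE 0.136, adjusted p = 0.0369), and Mcm6 at 12.2, 13 and 10.1 CPM in CTL and 7.44, 7.3 and 8.18 CPM in TGF-β1 (log2 fold change −0.62, SE 0.121, adjusted p = 0.0272). In these 3 genes all TGF-β1 cultures lay below all CTL cultures, and TGF-β1 means were 52.9%, 64.8% and 65.1% of CTL.

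Mcm4 was at 30.5, 33 and 31.4 CPM in CTL and 26.6, 24.3 and 29.8 CPM in TGF-β1, without overlap between groups, and passed the threshold only with the block (log2 fold change −0.24, SE 0.0865, adjusted p = 0.136, with the block 0.0412). Mcm2 was at 37.2, 35.8 and 38.3 CPM in CTL and 34.1, 27.9 and 36 CPM in TGF-β1 and overlapped through TGF-β1 replicate 3 (log2 fold change −0.18, SE 0.1, adjusted p = 0.29, with the block 0.0565). Mcm7 was at 58, 56 and 57.2 CPM in CTL and 58.8, 57.8 and 62.3 CPM in TGF-β1, and its groups overlapped as well (log2 fold change 0.06, SE 0.0484, adjusted p = 0.442, and a fold change of −0.0092 with scaling by total only). The transcript of Mcm7 hosts a microRNA cluster, and 12.6% of its exon bases overlap other genes.

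Divided by exon length, the ring transcripts kept 1 order in both groups. Exon length was the union of the annotated exons of all transcripts of a gene. The order between genes and their shares therefore depend on the annotation. In CTL, CPM per kb of exon was 12.9 ± 0.224 for Mcm7, 8.82 ± 0.353 for Mcm4, 5.34 ± 0.175 for Mcm2, 4.24 ± 0.378 for Mcm3, 2.52 ± 0.323 for Mcm6 and 2.5 ± 0.273 for Mcm5 (mean ± SD, n = 3). Mcm6 and Mcm5 did not differ beyond their spread in CTL. With TGF-β1 the levels per kb were 13.5 ± 0.529, 7.49 ± 0.769, 4.7 ± 0.606, 2.75 ± 0.433, 1.64 ± 0.102 and 1.32 ± 0.17 in the same order. Mcm7 held 35.5% of the ring's summed level per kb in CTL and 43.0% with TGF-β1, Mcm4 24.3% and 23.9%, and Mcm2 14.7% and 15.0%. Mcm3 held 11.7% and 8.75%, Mcm6 6.93% and 5.22%, and Mcm5 6.89% and 4.21%. Not divided by length, Mcm2 and Mcm4 exchanged ranks 2 and 3.

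**Figure D3:**
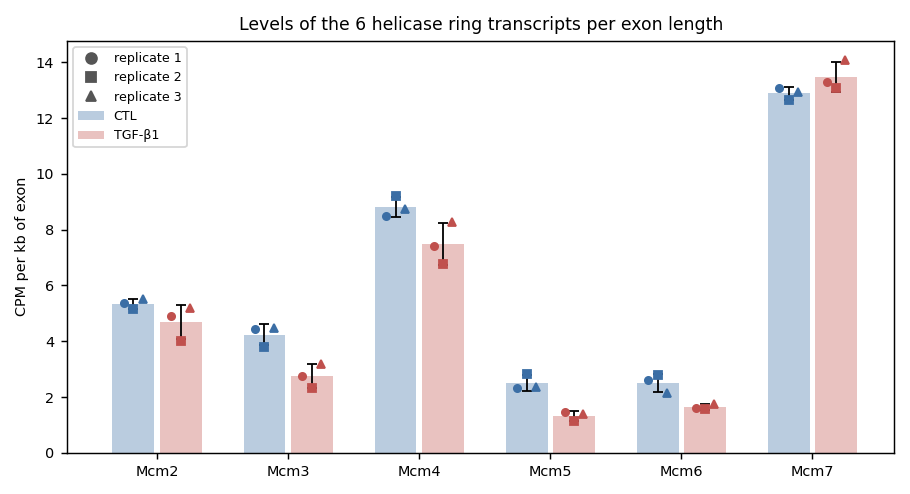
Levels of the 6 helicase ring transcripts in CPM per kb of exon, with bars for group means, error bars for SD (n = 3) and points for single cultures. Mcm7 stands highest at 12.9 in CTL and 13.5 with TGF-β1, and the bars of Mcm3, Mcm5 and Mcm6 are lower with TGF-β1 without overlap of points.

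Helicase activation and the GINS complex held 1 call and 3 more with the block, so that 4 of 6 genes were lower there. Over all genes, the share called lower also rose with the block, from 6.69% to 19.1%. Mcm10, which helps fire the assembled helicase, was at 2.32, 2.19 and 1.41 CPM in CTL and 0.77, 0.425 and 0.652 CPM in TGF-β1 and showed no overlap (log2 fold change −1.67, SE 0.301, adjusted p = 0.0218). Its TGF-β1 mean was 31.2% of CTL, on few reads, between 13 and 76 per culture. Cdc45, the helicase cofactor, was at 3.9, 3.8 and 3.13 CPM in CTL and 2.6, 2.65 and 2.52 CPM in TGF-β1 (log2 fold change −0.48, SE 0.139, adjusted p = 0.0772, with the block 0.0254).

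Of the 4 GINS subunits, Gins1 and Gins2 passed the threshold with the block. Gins2 was at 6.65, 5.92 and 5.1 CPM in CTL and 2.98, 3.79 and 4.39 CPM in TGF-β1 (log2 fold change −0.66, SE 0.183, adjusted p = 0.0686, with the block 0.0212), and 67.3% of its exon bases overlap Gse1. Gins1 was at 2.17, 2.34 and 2.79 CPM in CTL and 1.76, 1.41 and 1.75 CPM in TGF-β1 (log2 fold change −0.56, SE 0.177, adjusted p = 0.0945, with the block 0.031). Both lay below CTL in every culture. Gins3, in contrast, was at 4.88, 5.13 and 5.58 CPM in CTL and 5.26, 4.65 and 5.46 CPM in TGF-β1, with the groups interleaved (log2 fold change −0.02, SE 0.118, adjusted p = 0.933), and Gins4 had a log2 fold change of −0.07 (adjusted p = 0.631). The sign of the small Gins3 value turned in some fits without 1 culture, and that of Gins4 without both cultures numbered 1.

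Among the 8 genes of primase and the polymerases, 3 fell and 3 more passed with the block. The block called 19.1% of all genes lower, against 6.69% without it. Prim1, the catalytic primase subunit, was at 5.28, 5.44 and 3.99 CPM in CTL and 3.14, 2.06 and 2.11 CPM in TGF-β1 (log2 fold change −1.01, SE 0.222, adjusted p = 0.0378), and its TGF-β1 mean was 49.7% of CTL. Prim2, the large primase subunit, was at 9.33, 10.9 and 9.37 CPM in CTL and 8.53, 8.41 and 9.43 CPM in TGF-β1 and overlapped (log2 fold change −0.17, SE 0.103, adjusted p = 0.346). Pole, the catalytic subunit of the leading strand polymerase, fell from 5.38 ± 1.11 to 2.95 ± 0.491 CPM (mean ± SD, n = 3, log2 fold change −0.87, SE 0.204, adjusted p = 0.0452). Pold1, the catalytic subunit of polymerase delta, fell from 16.9 ± 0.412 to 13.4 ± 1.09 CPM (log2 fold change −0.34, SE 0.0823, adjusted p = 0.049). Pold1 lost its call, at an adjusted p of 0.0764, when genes with few counts were kept in the fit.

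Pola1, the catalytic subunit of polymerase alpha, was at 13.1, 12.2 and 13.1 CPM in CTL and 8.66, 7.88 and 11 CPM in TGF-β1 (log2 fold change −0.48, SE 0.136, adjusted p = 0.0727, with the block 0.00626). Pola2, its regulatory subunit, was at 13.1, 12.9 and 13.9 CPM in CTL and 11.9, 10.6 and 11.6 CPM in TGF-β1 (log2 fold change −0.23, SE 0.0806, adjusted p = 0.126, with the block 0.0498), and Pold2, the second subunit of polymerase delta, at 17, 19.8 and 17.5 CPM in CTL and 15.5, 14 and 15.2 CPM in TGF-β1 (log2 fold change −0.28, SE 0.0872, adjusted p = 0.0909, with the block 0.0389). No TGF-β1 culture reached the lowest CTL culture in any of these 3. Pole2, the second subunit of polymerase epsilon, also did not overlap but was not called in either fit (log2 fold change −0.32, adjusted p = 0.274, with the block 0.105).

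The clamp, its loader and the single-strand binding proteins had a median log2 fold change of −0.16, the closest to 0 of the 9 roles. edgeR called 0 of these 9 genes lower, with 2, Rfc5 and Rpa1, below an unadjusted p of 0.05, and DESeq2 called Rpa1 alone (adjusted p = 0.0248). With the block 3 were lower, Pcna, Rfc1 and Rpa1, where 19.1% of all genes were. Pcna, the sliding clamp and a common marker of proliferation, was at 38.6, 35.6 and 35.9 CPM in CTL and 34.7, 30.0 and 33.7 CPM in TGF-β1 (log2 fold change −0.16, SE 0.0738, adjusted p = 0.211, with the block 0.0496), or 89.4% of the CTL mean. Rpa1, the largest subunit of the single-strand binding protein, was at 54.9, 59.5 and 51.1 CPM in CTL and 46.6, 46.4 and 45.3 CPM in TGF-β1 (log2 fold change −0.26, SE 0.0655, adjusted p = 0.0553, with the block 0.00735). Rfc1, the large subunit of the clamp loader, was at 54.3, 52.9 and 53.3 CPM in CTL and 48.9, 42 and 50.9 CPM in TGF-β1 (log2 fold change −0.18, SE 0.0778, adjusted p = 0.192, with the block 0.0473). In Rpa1 and Rfc1 the TGF-β1 means were 83.7% and 88.3% of CTL, and in all 3 genes every TGF-β1 culture lay below every CTL culture.

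Rfc4, a small loader subunit, was at 5.28, 4.77 and 4.41 CPM in CTL and 5.68, 4.29 and 4.74 CPM in TGF-β1 with overlapping groups (log2 fold change 0.02, SE 0.148, adjusted p = 0.936, and −0.05 with scaling by total only). The remaining loader subunits Rfc2, Rfc3 and Rfc5 had log2 fold changes of −0.02, −0.02 and −0.23, and Rpa2 and Rpa3 of −0.21 and −0.12, with adjusted p from 0.137 for Rfc5 to 0.904 for Rfc3. Rfc5 and Rpa2 nevertheless showed no overlap between groups, while Rfc2, Rfc3 and Rpa3 did.

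Lig1 and Fen1 finish Okazaki fragments. Lig1, the ligase that seals them, was at 13, 13.1 and 12.1 CPM in CTL and 8.98, 8.11 and 9.31 CPM in TGF-β1 and fell without overlap (log2 fold change −0.53, SE 0.0883, adjusted p = 0.0176). Fen1, the nuclease that trims the flap, was at 1.31, 1.49 and 1.83 CPM in CTL and 1.48, 1.83 and 1.25 CPM in TGF-β1, with the groups mixed (log2 fold change −0.02, SE 0.22, adjusted p = 0.964). Only 42 to 56 reads per culture were counted for Fen1, and 84.2% of its exon bases overlap Tmem258 and Gm10143, so reads there could be left out of the counts as shared between genes.

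Nucleotide supply held 1 gene of 5 that fell, with the block 2 that fell and 1 that rose. Of all genes, 19.1% were lower and 15.1% higher with the block. Rrm2, the small subunit of ribonucleotide reductase, was at 22.1, 24.3 and 15.5 CPM in CTL and 11.3, 10.3 and 11.9 CPM in TGF-β1 (log2 fold change −0.88, SE 0.173, adjusted p = 0.028), and no TGF-β1 culture reached CTL. Tk1, thymidine kinase, was at 6.41, 8.35 and 6.37 CPM in CTL and 4.94, 3.83 and 4.83 CPM in TGF-β1, also without overlap (log2 fold change −0.63, SE 0.166, adjusted p = 0.0594, with the block 0.0181). Tyms, thymidylate synthase, was at 13.3, 12.7 and 11.5 CPM in CTL and 14.5, 15.1 and 14.8 CPM in TGF-β1. It was higher in all 3 TGF-β1 cultures than in any CTL culture (log2 fold change 0.24, SE 0.0795, adjusted p = 0.103, with the block 0.0417), and 118% of CTL in the mean.

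Dut, which removes dUTP, was at 20.5, 20.5 and 19.3 CPM in CTL and 19.5, 25.9 and 21.3 CPM in TGF-β1, and its highest culture was TGF-β1 replicate 2 (log2 fold change 0.15, SE 0.114, adjusted p = 0.453). Rrm1, the large subunit of ribonucleotide reductase, was at 75, 125 and 59.2 CPM in CTL and 64.2, 81.4 and 60.0 CPM in TGF-β1. In both groups replicate 2 was the highest, and the groups overlapped (log2 fold change −0.33, SE 0.286, adjusted p = 0.499). Without CTL replicate 2 the log2 fold change of Rrm1 was 0.03.

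**Figure D4:**
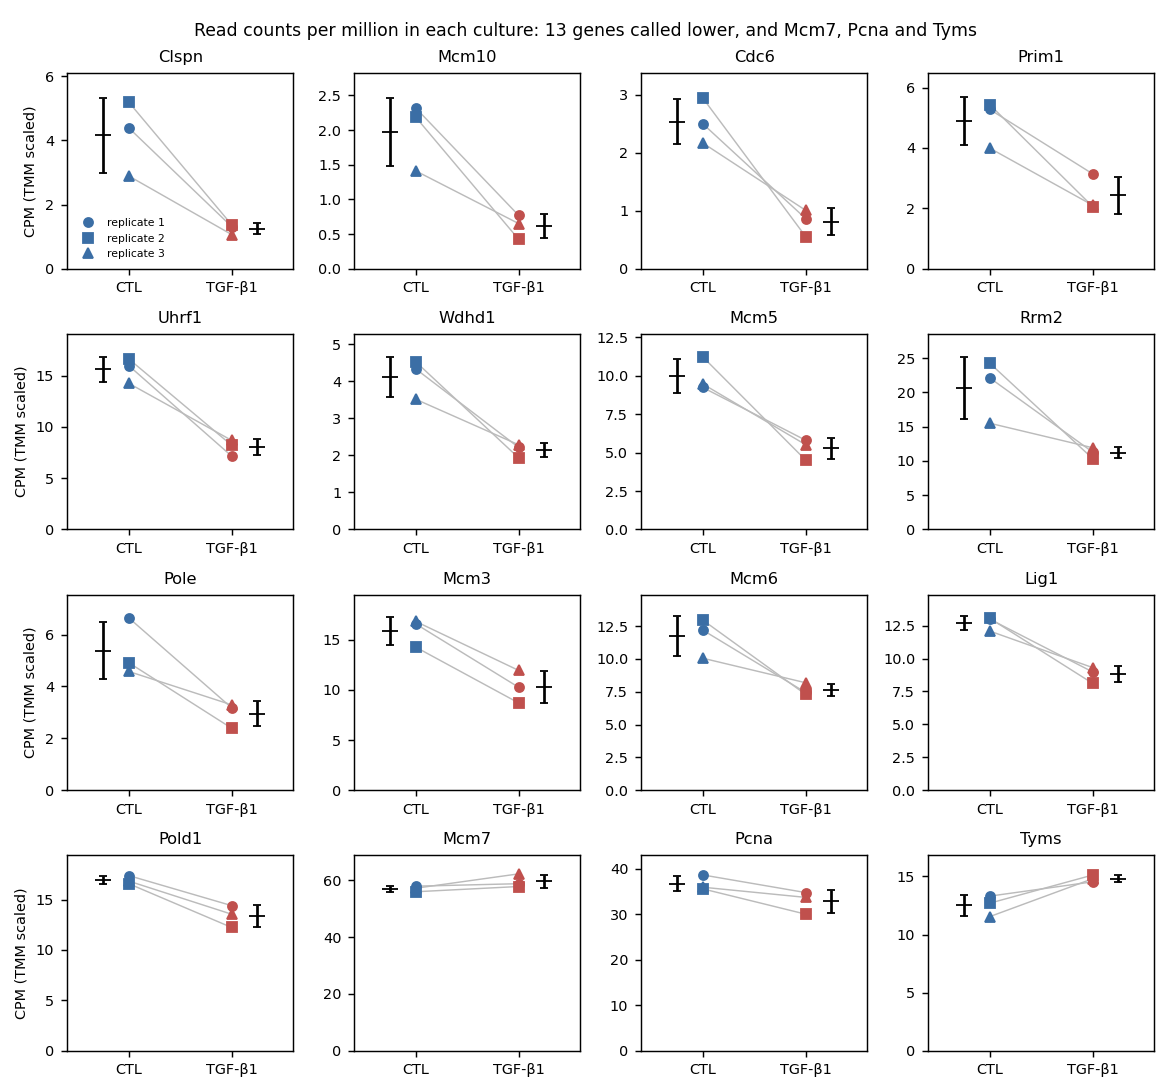
CPM in each culture for the 13 genes called lower and for Mcm7, Pcna and Tyms, with axes from 0. Symbols give the replicate number, grey lines join cultures of the same number, and black bars beside the points show mean ± SD (n = 3). TGF-β1 points lie below CTL points in the 13 genes and in Pcna, and above them in Tyms. In Mcm7 the groups overlap, although each TGF-β1 point lies above the CTL point of its number.

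In replication-coupled chromatin, Uhrf1 fell and the rest of the 4 genes were not called. Uhrf1, which brings the maintenance methyltransferase to newly copied DNA, was at 16, 16.6 and 14.3 CPM in CTL and 7.15, 8.21 and 8.69 CPM in TGF-β1. Its TGF-β1 mean was 51.3% of CTL and its groups lay far apart relative to their spread (log2 fold change −0.96, SE 0.108, adjusted p = 0.00683), the lowest adjusted p of the 49. Dnmt1, that methyltransferase, was at 49.8, 55 and 47.4 CPM in CTL and 46.2, 46 and 50.5 CPM in TGF-β1 with overlap (log2 fold change −0.09, SE 0.0735, adjusted p = 0.461). Chaf1b, a subunit of the chromatin assembly factor CAF-1, was at 8.24, 7.5 and 8.68 CPM in CTL and 6.45, 5.04 and 7.74 CPM in TGF-β1. TGF-β1 replicate 3 exceeded CTL replicate 2, yet Chaf1b was lower in each pair (log2 fold change −0.34, SE 0.17, adjusted p = 0.244, with the block 0.0353). Chaf1a, the large CAF-1 subunit, had a log2 fold change of −0.15 (adjusted p = 0.397), and 52.5% of its exon bases overlap Ubxn6.

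Fork protection and checkpoint mediation included the deepest fall. Clspn (claspin), which relays the replication checkpoint to Chk1, was at 4.39, 5.19 and 2.89 CPM in CTL and 1.32, 1.37 and 1.07 CPM in TGF-β1, 30.1% of the CTL mean with TGF-β1 (log2 fold change −1.73, SE 0.256, adjusted p = 0.0128). Its highest TGF-β1 culture, replicate 2, lay well below its lowest CTL culture, replicate 3. Wdhd1, which tethers polymerase alpha to the helicase, fell from 4.12 ± 0.537 to 2.14 ± 0.187 CPM (mean ± SD, n = 3, log2 fold change −0.94, SE 0.157, adjusted p = 0.0175).

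Timeless, a fork protection protein, was at 6.5, 6.19 and 6.34 CPM in CTL and 5.07, 5.14 and 4.6 CPM in TGF-β1 (log2 fold change −0.36, SE 0.1, adjusted p = 0.0693, with the block 0.0272) and did not overlap. Tipin, its partner, was at 11, 11.8 and 9.44 CPM in CTL and 9.72, 9.09 and 8.81 CPM in TGF-β1 and did overlap (log2 fold change −0.22, SE 0.108, adjusted p = 0.239). In this role Clspn and Wdhd1 were called, and Timeless was added by the block.

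Partner genes were compared as log2 ratios of CPM. Their products work together, except for Cdt1 and its inhibitor Gmnn. The 6 ratios were tested by two-sided exact permutation tests, for which 3 against 3 cultures cannot give a p below 0.1. The Pole to Pole2 ratio was 0.87, 0.40 and 0.20 in CTL and 0.06, −0.02 and −0.12 in TGF-β1, which did not overlap (difference −0.52, exact p = 0.1, adjusted p = 0.3). Rrm2 to Rrm1 differed by −0.59 (exact p = 0.2, adjusted p = 0.3), Cdt1 to Gmnn by 0.36 (exact p = 0.2, adjusted p = 0.3) and Timeless to Tipin by −0.15 (exact p = 0.2, adjusted p = 0.3). Chaf1b to Chaf1a differed by −0.22 (exact p = 0.4, adjusted p = 0.48) and Pold1 to Pold2 by −0.06 (exact p = 0.6, adjusted p = 0.6). These tests did not use the pairing of the cultures. Within pairs 1, 2 and 3, Pole to Pole2 differed by −0.81, −0.42 and −0.32, Rrm2 to Rrm1 by −0.74, −0.61 and −0.40, and Chaf1b to Chaf1a by −0.19, −0.28 and −0.18. Cdt1 to Gmnn differed by 0.25, 0.82 and 0.0002. With that last value counted as positive, 4 of the 6 ratios had 1 sign in all 3 pairs, a count that was not tested.

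Beyond the 49, 42 other replication genes held 4 lower (9.52%) and 2 higher, with a median log2 fold change of −0.08. Over all genes tested, 6.69% were called lower and 5% higher, so this list lay near the background. With the block 9 of these genes were lower and 3 higher, where 19.1% and 15.1% of all genes were. Dscc1, part of an alternative clamp loader, was lowest at −1.43 (SE 0.276, adjusted p = 0.0266), and Rnaseh2b, a subunit of ribonuclease H2, highest at 0.51 (SE 0.115, adjusted p = 0.0399). The 21 G1 cyclin, E2F and Rb genes held 4 lower (19%), with a median of −0.20, from E2f7 at −1.55 (SE 0.286, adjusted p = 0.0233) to E2f8 at 0.23 (SE 0.127, adjusted p = 0.284), and 9 lower and 2 higher with the block. Of the 36 mitosis genes, 32 were lower (88.9%) and the median was −1.49, from Kif2c at −2.33 (SE 0.283, adjusted p = 0.0082) to Cit at 0.49 (SE 0.272, adjusted p = 0.293). With the block 32 mitosis genes were lower and 1, Cit, was higher (adjusted p = 0.0304). The replication genes thus had a median between those of the other replication genes and of the mitosis genes. The count of mitosis genes was 12 without CTL replicate 1 or TGF-β1 replicate 1 and 20 without CTL replicate 2. Without any 1 culture the count of other replication genes was 1 or 2. The count of G1 genes was 0 without either culture numbered 1, 1 without TGF-β1 replicate 2 or 3 and 2 without CTL replicate 2.

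**Figure D5:**
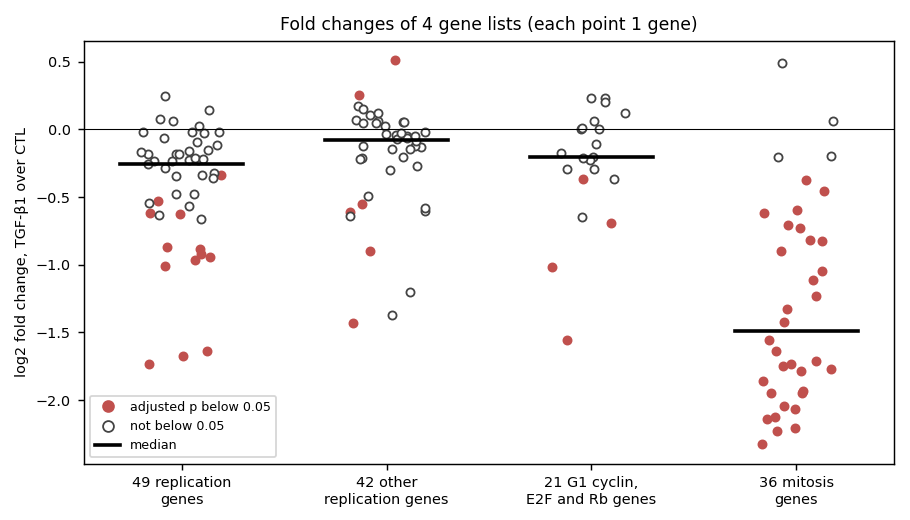
Log2 fold changes of single genes (points) in 4 lists, with the median of each as a bar. Red points passed an adjusted p of 0.05. The median is −0.26 for the 49 replication genes, −0.08 for other replication genes, −0.20 for G1 cyclin, E2F and Rb genes and −1.49 for mitosis genes.

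2 of 7 inhibitors of cyclin-dependent kinases were called higher and 4 with the block, where 2 were also lower. Over all genes 5% were called higher, and with the block 15.1% were higher and 19.1% lower. The 2 lower with the block, named after their values were seen, were Cdkn2c and Cdkn2d. Cdkn2c had a log2 fold change of −0.82 (SE 0.344, adjusted p = 0.183, with the block 0.00124). That of Cdkn2d was −0.42 (SE 0.144, adjusted p = 0.118, with the block 0.00778). Cdkn2b, a known TGF-β1 target that blocks the G1 kinases, was at 108, 105 and 124 CPM in CTL and at 191, 212 and 204 CPM in TGF-β1 (log2 fold change 0.85, SE 0.0776, adjusted p = 0.00379), and Cdkn2a had a log2 fold change of 0.42 (SE 0.0972, adjusted p = 0.0441). Of 6 genes known to respond to TGF-β1, 4 were higher, and 5 with the block.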

How the data were processed

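RNA sequencing of 3 CTL and 3 TGF-β1 cultures of RTECs was analysed. The authors deposited raw read counts per gene for each culture, without normalization, after trimming with Trim Galore, alignment to GRCm38 with STAR 2.4.1d and counting with HTSeq 0.6.1, per the submitters' processing notes. The annotation release and the strand setting of the counting are not given in the sources used here. Reads on several places (18.7% to 19.4%), on no gene (4.16% to 4.93%) or on more than 1 gene (1.88% to 1.97%) were counted apart from genes and left out. 3 counts, the floor used here, equal 0.089 to 0.103 CPM and cover counting error only, because reads carried no molecular identifiers. No pair of libraries agreed within counting noise (chi-square per degree of freedom of at least 9.71).

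Symbols, positions and exon lengths came from GENCODE M21, which matched 46005 of 46517 identifiers. Counts were fitted in R 4.3.3 with edgeR 4.0.16 (filterByExpr by condition, TMM, robust glmQLFit, two-sided glmQLFTest without a block), with Benjamini-Hochberg adjustment over all 15862 genes tested and a threshold of 0.05. Groups and replicate numbers came from the sample titles. The numbers paired the cultures: deviations from group means correlated at 0.445, 0.738 and 0.648 between cultures of the same number and at −0.688 to 0.289 otherwise. The pairing is read from the titles and these correlations, since no label states a shared animal.

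The 49 genes, their roles and the comparison lists (other replication, mitosis, G1 cyclin, E2F and Rb genes, inhibitors of cyclin-dependent kinases, TGF-β1 response genes and cell type markers) were chosen with earlier results of these data known. Values per culture are given for the lowest and highest fold change in each role, Mcm2 to Mcm7, Pcna, Gmnn, Rrm1, genes with a fold change above 0 and genes whose call changed with the block, and of the other lists the extremes are named, except genes not reported here. Rrm1 was added to these after its values were seen. Alternatives were DESeq2 1.42.0, limma-voom (limma 3.58.1), RLE, scaling by total only, 2 other filters on low counts, the replicate block, a threshold of 0.01 and leaving out cultures. Leaving out a replicate number within the block was added after seeing the data. The models were tested on simulated counts drawn without a replicate effect, so that test does not cover the pairing of these cultures. Ratios were tested with scipy 1.17.1 and figures drawn with matplotlib 3.10.9.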

Additional observations from a re-analysis of the deposited data

How the results depend on the processing

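DESeq2 called 17 of the 49 genes lower (9.59% of all genes), scaling by total only 16 (9.25%), limma-voom, RLE and a minimum of 10 counts 13 each (6.39% to 6.72%), and keeping genes with few counts 12 (3.63%), against 13 (6.69%) without these changes. The median log2 fold change of the 49 lay between −0.34 and −0.20 in all alternatives run. The replicate block, used because the numbers pair the cultures, moved the count from 13 to 26 lower and from 0 to 1 higher, and the counts of other replication and of G1 genes from 4 to 9 each. It lost no call among the 49. A threshold of 0.01 left 1 of the 49, 1 other replication gene, 12 mitosis genes and 0 G1 genes. The share of all genes at that threshold was not counted. Leaving out 1 culture gave 1 to 11 of the 49, 1 to 2 other replication genes, 12 to 28 mitosis genes and 0 to 3 G1 genes, and the lowest of these counts came without either culture numbered 1, among the other replication genes also without either numbered 2. Without both cultures numbered 1, edgeR called 0 of all genes (1938 at an unadjusted p under 0.05), hence 0 in each list. Without replicates 2 and 3 it called 8 and 3 of the 49 lower, and 8.09% and 1.19% of all genes. For the other lists these counts were 1 and 1 of the other replication genes, 26 and 8 mitosis genes and 4 and 1 G1 genes. With the block, leaving out replicates 1, 2 and 3 gave 12, 18 and 29 of the 49, where 10.3%, 17% and 20.3% of all genes were lower. The same fits gave 2, 9 and 13 other replication genes, 27, 32 and 33 mitosis genes and 5, 10 and 11 G1 genes.

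Signs turned for genes that were not called. Scaling by total only shifted the median of all genes by −0.074 and with it Orc6 (−0.0015), Mcm7 (−0.0092) and Rfc4 (−0.048) below 0, so these turns follow from the common shift. Over the fits without 1 culture, log2 fold changes ran from −0.0036 to 0.12 for Orc6, −0.069 to 0.040 for Gins3, −0.052 to 0.0038 for Rfc2, −0.068 to 0.040 for Rfc3, −0.090 to 0.11 for Rfc4, −0.18 to 0.11 for Fen1 and −0.54 to 0.030 for Rrm1, the last positive only without CTL replicate 2. Without both cultures numbered 1, Gins4 (0.015), Rfc4 (−0.024) and Rpa3 (0.0057) turned, without those numbered 2, Orc1 (0.080), Gins3 (0.038) and Rfc3 (0.0010), and without those numbered 3, Rfc2 (0.023), Rfc4 (−0.011) and Fen1 (0.24). The cause was not tested. The 6-base E2F letters raised the share of promoters with a match from 40.0% to 75.0% in the replication genes and from 2.6% to 29.3% in all genes, as shorter letters match more often. Depth limits the low genes most, Mcm10 with as few as 13 reads and Fen1 with 42.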

Other observations

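Other promoter letters were counted in the same windows. CCAAT, the box bound by NF-Y, stood in 62.5% of the 40 replication genes with a window, in 71.0% of the 31 mitosis genes with one and in 41.1% of all genes. TTTGAA, the letters of the cell cycle homology region, stood in 15.0% of the replication genes and in 0 of the 12 called lower, but in 71.0% of the mitosis genes and 20.2% of all genes. E2F letters showed the opposite order, in 40.0% of the replication genes and 3.23% of the mitosis genes, with 31.4% of the other replication genes and 40.0% of the G1 cyclin, E2F and Rb genes in between or level. These shares are descriptions of sequence and were not tested.

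Outside the 49, the other replication genes called lower included Dscc1, Chtf18 and Samhd1, named after their values were seen. Samhd1, which degrades nucleotides, was at 97.8, 105 and 84.4 CPM in CTL and 55.3, 47.8 and 50.8 CPM in TGF-β1 (log2 fold change −0.90, SE 0.097, adjusted p = 0.0061). E2f1 itself was at 12.8, 18.6 and 11.2 CPM in CTL and 12.6, 19.1 and 10.8 CPM in TGF-β1 (log2 fold change −0.00014, SE 0.278, adjusted p = 1), and in both groups its highest culture was replicate 2.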
